A study of Mus musculus with 12 samples.

Results

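The genes described here are 8 oncofetal genes chosen by name, *Lin28a*, *Lin28b*, *Trim71*, *Hmga1*, *Hmga2*, *Igf2bp1*, *Igf2bp2* and *Igf2bp3*, out of 46517 genes listed in the count tables. All 8 were listed and all 8 passed the filter on low counts, which left 15673 genes for the tests. They were followed in polyadenylated RNA from 12 samples in 4 groups of 3. WT and *Meteor* KO cells came from 1 mouse ESC line on a C57BL/6 background, and every group carried the *Eomes*EGFP reporter allele, an EGFP cassette at the start of *Eomes*. *Meteor* KO cells lack the *Meteor* enhancer after a CRISPR-Cas9 nickase deletion and were derived from picked clones. The sources used here do not say that the 3 KO replicates came from more than 1 clone, so the effect of the deletion and that of a clone cannot be told apart. Day 0 samples were undifferentiated ESCs grown on mouse embryonic fibroblast feeders. Day 3 samples were embryoid bodies (EBs) formed in hanging drops for cardiac differentiation.

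*Lin28a* and *Lin28b* encode RNA-binding proteins that keep precursors of the let-7 microRNAs from being processed. Mature let-7 lowers mRNAs that carry a match to its seed in their 3′ UTR, and *Lin28a*, *Lin28b*, *Trim71*, *Hmga2* and the *Igf2bp* genes are among its described targets, which makes a loop of mutual repression. These genes are expressed in the early embryo, fall as let-7 accumulates in differentiating tissues, and are re-expressed in many tumours. Mature let-7 is not polyadenylated, so these libraries did not measure it.

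The let-7 family was read from the RefSeq microRNA table of GRCm38.p6, which held 11 names from 13 genes. Of these, 10 names shared the seed GAGGUAG and let-7j had GAGGUAU. A few mature sequences are shown because their common seed is what the 3′ UTRs were searched with. Capitals mark the seed, bases 2 to 8, in 5′ to 3′ direction.
mmu-let-7a-5p: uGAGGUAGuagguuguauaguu
mmu-let-7b-5p: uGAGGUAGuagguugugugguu
mmu-let-7g-5p: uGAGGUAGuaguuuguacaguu
mmu-miR-98-5p: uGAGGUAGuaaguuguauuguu
mmu-let-7j: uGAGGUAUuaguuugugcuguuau
The let-7a sequence is that of *Mirlet7a-1* (chr13:48538239-48538260, minus strand). Those of let-7b (chr15:85707325-85707346, plus strand), let-7g (chr9:106178846-106178867, plus strand), miR-98 (chrX:151913229-151913250, plus strand) and let-7j (chr3:140028281-140028304, plus strand) are listed on the same build. They differ from each other only outside the seed, except for let-7j.

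LIN28 proteins hold the terminal loop of let-7 precursors, and their zinc knuckles are known to contact GGAG. Of 11 let-7 hairpins with both arms in the table, 8 held GGAG between the arms, against 8.07% of the 644 mouse hairpins with both arms. The RNA between the arms is shown for *Mirlet7a-1* and *Mirlet7c-1*, which hold the motif, and for *Mirlet7c-2*, which does not. Capitals mark GGAG.
Mirlet7a-1: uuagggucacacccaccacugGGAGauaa
Mirlet7c-1: uagaguuacacccugGGAGuuaa
Mirlet7c-2: uugggcucugccccgcucugcgguaa

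The annotated 3′ UTRs of the 8 genes were searched for CTACCTC, the complement of the common seed, on the sense strand. The transcript with the longest 3′ UTR in GENCODE M21 (GRCm38) stood for each gene. All 8 held at least 1 match, whereas 12% of 14116 tested protein-coding genes (PCGs) with an annotated 3′ UTR did. There were 21 matches over the 8 genes, and 13 of them were followed by A, as in the preferred let-7 sites. 1 site of each gene is shown with 14 bases before it and 1 after it, to give the sequence around the match. Only the match itself was searched for as a complement of let-7. Capitals mark the match.
Lin28a: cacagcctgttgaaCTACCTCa
Lin28b: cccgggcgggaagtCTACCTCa
Trim71: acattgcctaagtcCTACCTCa
Hmga1: cctctgttcacaaaCTACCTCt
Hmga2: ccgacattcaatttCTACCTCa
Igf2bp1: ctgtgcgaagtaaaCTACCTCa
Igf2bp2: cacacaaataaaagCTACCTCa
Igf2bp3: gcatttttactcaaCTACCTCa
Because a longer 3′ UTR holds more matches by its length alone, each gene was set beside tested PCGs whose 3′ UTR was within 20% of its length. *Hmga2* had 4 matches in 3014 bases, and 0.148% of 2028 such genes had as many. *Lin28b* had 4 in 4445 bases, where 0.252% had as many, and *Igf2bp1* had 4 in 6337 bases, where 0.409% had as many. *Trim71* had 4 in 5512 bases, where 0.571% had as many, and *Lin28a* had 2 in 2775 bases, where 2.5% had as many. The remaining genes were less unusual for their length. *Hmga1*, *Igf2bp2* and *Igf2bp3* had 1 match each, and 9.73%, 13.4% and 15% of PCGs of similar 3′ UTR length had at least 1. In GRCm38 the genes lie at chr4:134003330-134018841 (*Lin28a*), chr10:45376620-45486395 (*Lin28b*), chr9:114507133-114564369 (*Trim71*), chr10:120361275-120476469 (*Hmga2*), chr11:95957163-96005940 (*Igf2bp1*), chr16:22059009-22163299 (*Igf2bp2*) and chr6:49085223-49214957 (*Igf2bp3*) on the minus strand, and at chr17:27556497-27563674 (*Hmga1*) on the plus strand. A match describes the sequence only and does not show that let-7 acted on the transcript in these cells.

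**Figure D1:**
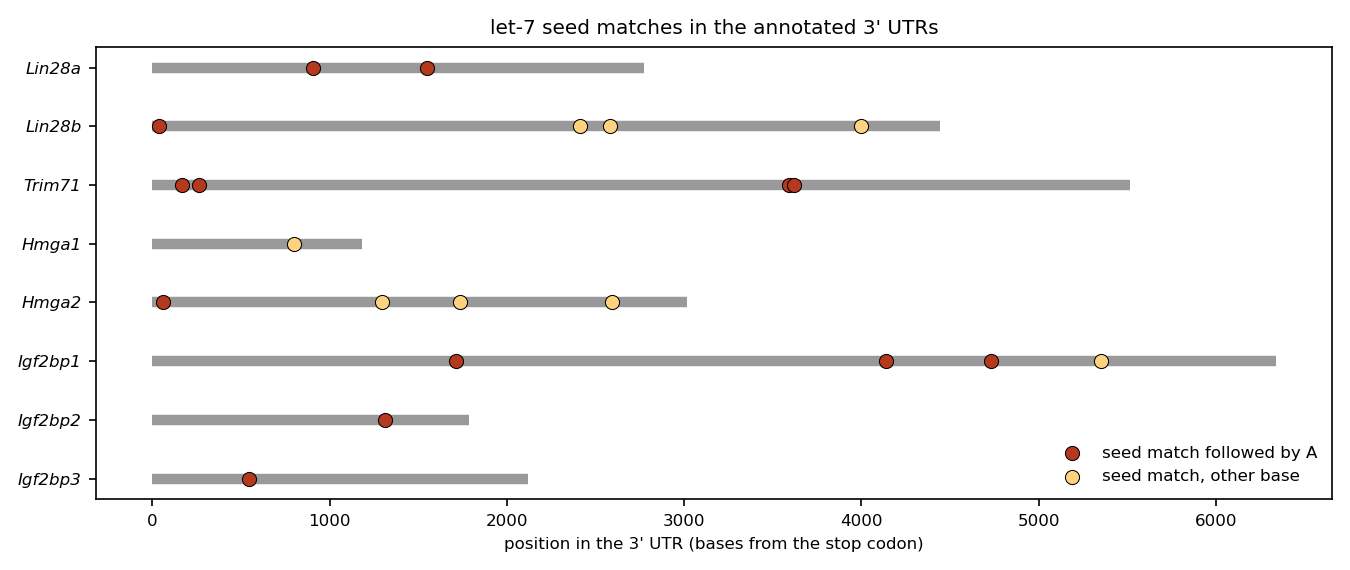
Positions of let-7 seed matches (points) along the annotated 3′ UTRs (grey bars) of the 8 genes, in bases from the stop codon. Dark points are matches followed by A and light points are the other matches. The first match lies within 100 bases of the stop codon in *Lin28b* and *Hmga2* only, and *Lin28b*, *Trim71*, *Hmga2* and *Igf2bp1* hold 4 matches each.

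Several properties of the libraries bear on these genes. The reads counted on genes numbered 17455927 to 23910943 in each library. The transcript of the *Meteor* locus annotated as ENSMUSG00000103968 had a mean of 3.87 CPM (reads of a gene relative to all counted reads of its library, adjusted by TMM) in WT ESCs and no read in any KO library, which fits the labels. *Upf3b*, a gene of nonsense-mediated mRNA decay, was at a mean of 52.0 CPM in WT ESCs and 0.465 CPM in KO ESCs, so the KO cells differed from WT in this gene as well. Its part in the results below was not tested. Pluripotency markers were present at day 0, with a summed level of 3339 to 3967 CPM over 9 genes in WT and 4605 to 4962 CPM in KO. The 4 postimplantation epiblast markers summed to 488.0 to 809.0 CPM in WT ESCs and 278.9 to 369.6 CPM in KO ESCs, and all 4 were lower in KO. The 5 neuroectoderm markers summed to 104.7 to 195.9 CPM in WT ESCs and 46.1 to 58.9 CPM in KO ESCs, and 3 of them were lower in KO. Of the WT ESCs, replicate 3 had the highest sum of both lists. Its 7 primitive streak and mesendoderm markers summed to 164.6 CPM, against 71.4 and 41.5 CPM in replicates 1 and 2. KO ESCs were at 52.0 to 68.5 CPM for these 7 markers. The 11 feeder fibroblast markers summed to 86.8 to 277.1 CPM in WT and 137.1 to 381.1 CPM in KO at day 0, and none of the 9 tested differed at an adjusted p of 0.05. At day 3 the 7 primitive streak and mesendoderm markers summed to 869.6 to 1757 CPM in WT and 75.8 to 150.2 CPM in KO, with all 7 lower in KO. WT day 3 replicate 3 stood apart from the other WT EBs, with 649.1 CPM of pluripotency markers against 1152 and 1172 CPM. Its primitive streak and mesendoderm sum was 869.6 CPM against 1757 and 1575 CPM. The 8 markers listed as extraembryonic endoderm summed to 326.2 CPM against 80.2 and 77.3 CPM. Most of this was *Gata4*, *Dab2*, *Gata6* and *Sox17* (101.1, 83.2, 63.4 and 43.2 CPM), and *Ttr* and *Apoa1* had 11.3 and 8.77 CPM. The paper uses *Gata4* as a cardiac mesoderm marker and *Sox17* as a mesendodermal factor. The list thus does not settle which cells were present. Results that rest on replicate 3 are given with and without it. In bulk RNA, fewer cells of a type and less RNA per cell cannot be told apart.

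Levels were compared between genes as CPM per kb of exon (all annotated exons of a gene merged), with means ± SD of 3 replicates. In WT ESCs *Lin28a* was the highest at 143.4 ± 38.5 CPM per kb, followed by *Igf2bp1* at 93.2 ± 13.7 and *Trim71* at 53.3 ± 2.71. *Hmga1* was at 34.3 ± 8.23 and *Igf2bp2* at 16.1 ± 0.848 CPM per kb. The lowest 3 in WT ESCs were *Lin28b* at 9.30 ± 1.53, *Igf2bp3* at 8.89 ± 2.86 and *Hmga2* at 4.36 ± 2.19 CPM per kb, and the first 2 of these did not differ beyond their spread. *Lin28a* thus led its family by a wide margin, and *Lin28b* made up 6.21% ± 0.703 of the per-kb *Lin28* signal in WT ESCs and 9.33% ± 0.618 in WT EBs. In the *Igf2bp* family, *Igf2bp1* made up 78.7% ± 2.63 of the per-kb signal in WT ESCs and 55.7% ± 2.15 in WT EBs. In KO samples *Igf2bp1* was at 81.2% ± 3.58 of its family in ESCs and 55.6% ± 3.62 in EBs, within the spread of WT at each day. *Lin28b* made up 4.70% ± 1.3 of the *Lin28* signal in KO ESCs, with overlap between KO and WT samples, and 8.90% ± 0.705 in KO EBs. The *Hmga* genes differed at day 3, where *Hmga2* made up 48.9% ± 14.8 of the signal of *Hmga1* and *Hmga2* in WT EBs. In KO EBs it made up 21.5% ± 2.05, without overlap. WT EB replicates 1 to 3 were at 44.5%, 36.7% and 65.4%, and the highest KO replicate was at 23.0%. These shares leave out *Hmga1b*, a near-identical copy of *Hmga1*. Reads that map to both copies were not counted, so the level of *Hmga1* is likely too low and the *Hmga2* shares too high. In WT EBs *Hmga1b* was at 114.8 CPM per kb, *Hmga2* at 38.9 and *Hmga1* at 37.0. In KO EBs they were at 149.9, 14.5 and 52.9 CPM per kb.

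**Figure D2:**
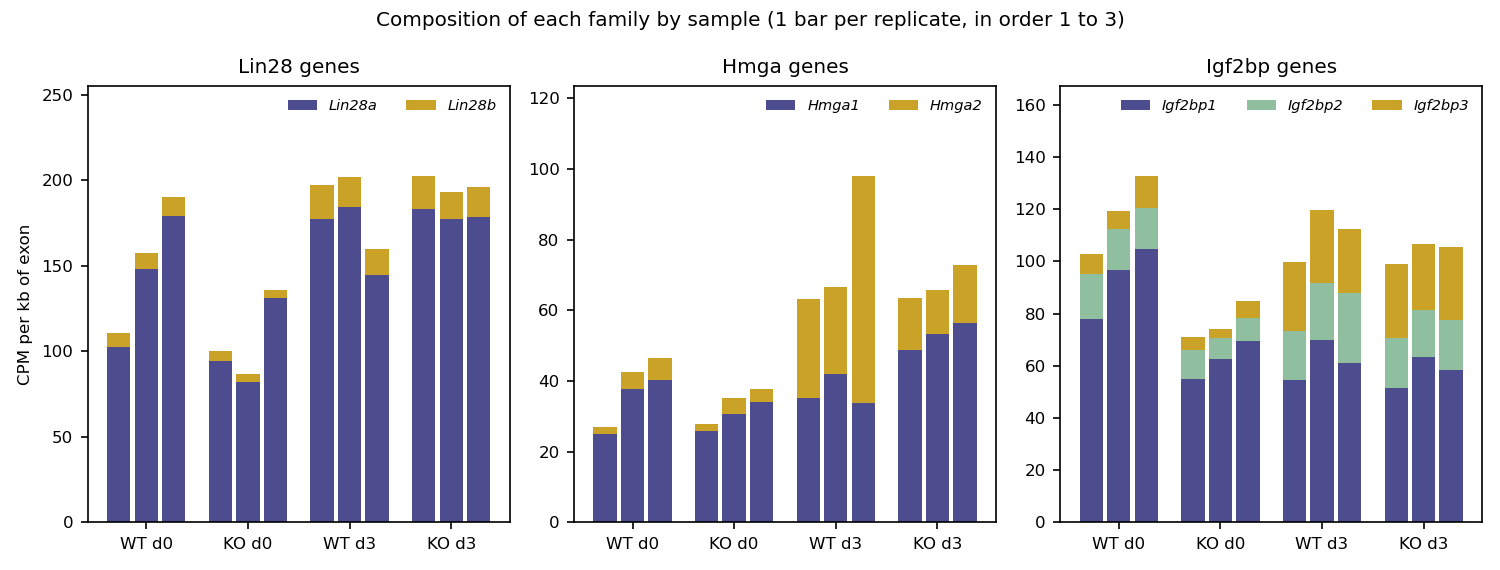
Level of each gene in CPM per kb of exon (y axis), stacked within the Lin28, Hmga and Igf2bp families, with 1 bar per replicate in the order 1 to 3 for each group on the x axis. *Lin28a* and, at day 0, *Igf2bp1* fill most of their bars. *Hmga2* is larger than *Hmga1* only in WT day 3 replicate 3, at 65.4% of the 2 together. The copy *Hmga1b* is not drawn, and reads that map to both copies were not counted, so *Hmga1* is likely too low.

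The course of differentiation in WT cells, from ESCs to day 3 EBs, came next. Of the 8 genes, 4 rose (*Lin28b*, *Hmga2*, *Igf2bp2* and *Igf2bp3*), 2 fell (*Trim71* and *Igf2bp1*), and *Lin28a* and *Hmga1* did not pass the test (edgeR's quasi-likelihood test, adjusted p under 0.05). Across all 15673 genes 56.2% passed, 30.7% as higher and 25.5% as lower, so a count of 6 of 8 was not far from the background. The median log2 fold change was 0.38 over the 8 genes and 0.07 over all genes tested.

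*Hmga2* encodes an architectural chromatin protein of growing embryonic tissue and had the largest rise of the 8 in WT cells. Its CPM values were 13.3, 33.0 and 42.4 in WT ESCs and 190.6, 165.5 and 434.2 in WT EBs. Every EB sample was above every ESC sample, and replicate 3 of the EBs was far above the other EB replicates. The log2 fold change was 3.18 (SE 0.36, edgeR adjusted p = 7.35e-05), or 9.04-fold, and it lay between 2.86 and 3.51 when single libraries were left out.

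The other genes that rose in WT cells encode RNA-binding proteins. *Igf2bp3*, which binds *Igf2* and other growth-related mRNAs, had 62.4, 56.0 and 99.2 CPM in WT ESCs and 215.4, 228.6 and 199.2 CPM in WT EBs. The groups did not overlap, and the log2 fold change was 1.62 (SE 0.20, edgeR adjusted p = 0.000131). *Lin28b*, the LIN28 paralog that carries a nucleolar localization signal, had 70.2, 84.9 and 97.9 CPM in WT ESCs and 178.1, 160.1 and 134.7 CPM in WT EBs. Every EB library was higher, with a log2 fold change of 0.89 (SE 0.16, edgeR adjusted p = 0.000903). *Igf2bp2*, another member of the mRNA-binding family, had 126.7, 115.3 and 116.4 CPM in WT ESCs and 139.6, 163.0 and 198.8 CPM in WT EBs. Its log2 fold change of 0.48 (SE 0.13, edgeR adjusted p = 0.0109) was the weakest of the calls. Without WT day 3 replicate 3 it was 0.33 (edgeR adjusted p = 0.0513), and without WT day 0 replicate 3 it was 0.43 (edgeR adjusted p = 0.0509). With the 6 WT samples alone it was 0.42 (edgeR adjusted p = 0.062).

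*Trim71*, a let-7 target that encodes an RNA-binding ubiquitin ligase of stem cells, went the other way. It had 467.8, 510.9 and 512.1 CPM in WT ESCs and 249.1, 276.3 and 281.1 CPM in WT EBs. The replicates were tight and far apart between the days, with a log2 fold change of -0.89 (SE 0.06, edgeR adjusted p = 4.95e-06). *Igf2bp1*, the most abundant of its family, had 756.3, 936.6 and 1015 CPM in WT ESCs and 527.5, 675.0 and 591.8 CPM in WT EBs. All EB values were lower, with a log2 fold change of -0.59 (SE 0.08, edgeR adjusted p = 0.00018). The 3 *Igf2bp* genes therefore did not move together in WT cells.

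*Lin28a* had 410.7, 591.7 and 716.5 CPM in WT ESCs and 709.1, 737.5 and 579.3 CPM in WT EBs. The groups overlapped, with a log2 fold change of 0.27 (SE 0.19, edgeR adjusted p = 0.263). Without WT day 3 replicate 3 it was 0.48 (edgeR adjusted p = 0.0436). *Hmga1*, which encodes the related chromatin protein of proliferating cells, had 53.0, 80.4 and 85.5 CPM in WT ESCs and 74.5, 89.5 and 72.1 CPM in WT EBs, also with overlap (log2 fold change 0.13, SE 0.13, edgeR adjusted p = 0.4).

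**Figure D3:**
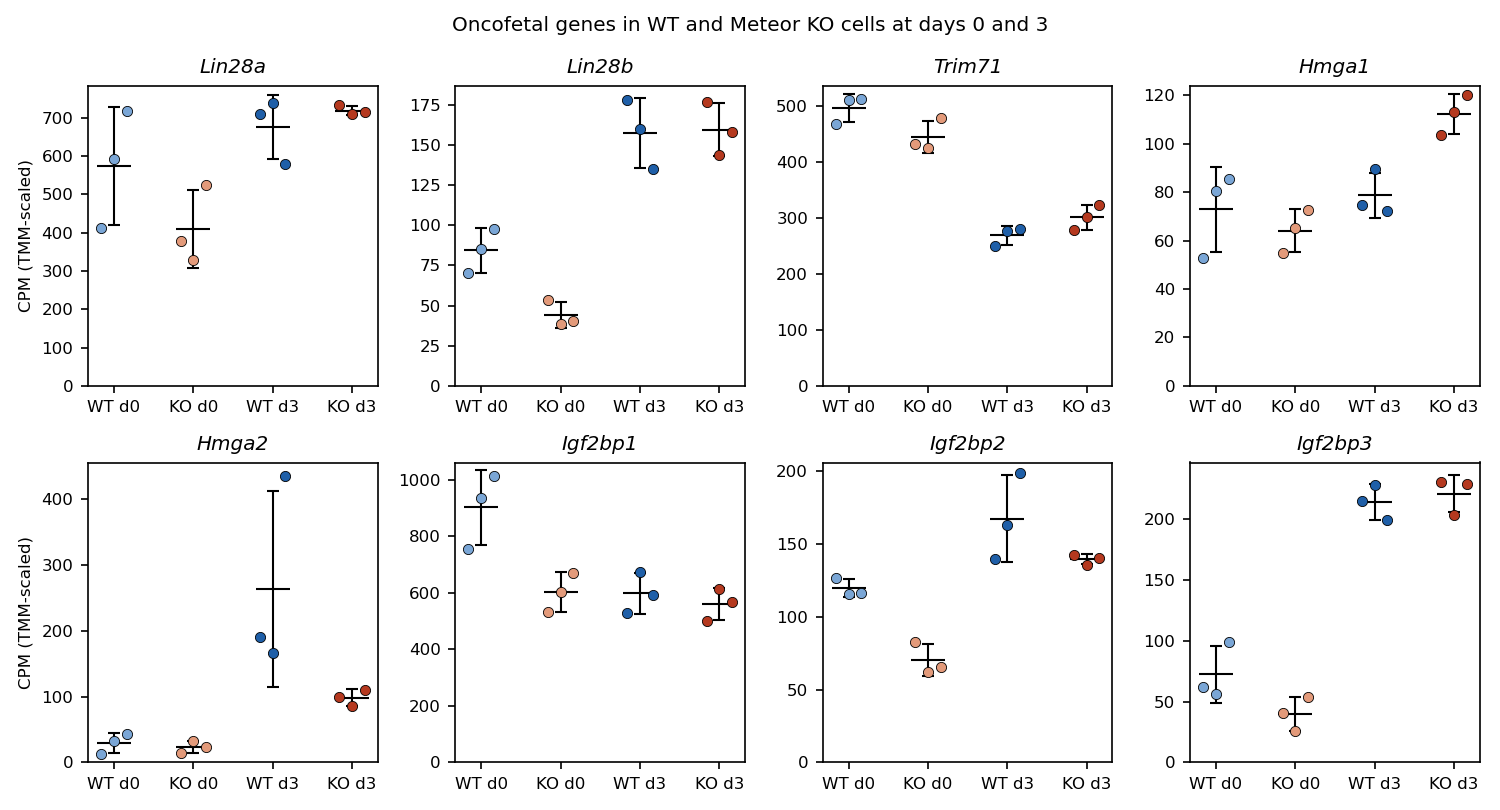
TMM-scaled CPM (y axis, from 0, with its own scale per gene) of the 8 genes in each of 12 samples, by genotype and day (d0, day 0; d3, day 3). Points are replicates 1 to 3 from left to right, and bars are the mean ± SD. KO ESCs lie below WT ESCs without overlap for *Lin28b*, *Igf2bp1*, *Igf2bp2* and *Igf2bp3*, and *Hmga2* in WT EBs spans 165.5 to 434.2 CPM.

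In ESCs, before differentiation, WT and *Meteor* KO cells were compared to ask what the deletion line expressed in the pluripotent state. The *Lin28b* and all 3 *Igf2bp* mRNAs were lower in KO ESCs, while *Lin28a*, *Trim71*, *Hmga1* and *Hmga2* did not pass the test. Thus 4 of 8 genes were lower and none higher, where 10.9% of all genes tested were lower and 9.56% higher, or 20.4% in all. At an unadjusted p under 0.05, 6 were lower and none higher, a cutoff for which no share of all genes was counted. DESeq2 and limma-voom also gave 4 lower and none higher, where 23.3% and 20.2% of all genes passed in either direction. The median log2 fold change of the 8 genes was -0.53, beside -0.01 over all genes.

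*Lin28b* had 53.3, 38.8 and 40.6 CPM in KO ESCs, against 70.2, 84.9 and 97.9 CPM in WT ESCs. Each KO value was below each WT value, with a log2 fold change of -0.95 (SE 0.16, edgeR adjusted p = 0.003), or 1.93-fold lower. *Lin28a* had 377.4, 328.7 and 524.4 CPM in KO ESCs, which overlapped the WT range of 410.7 to 716.5 CPM. It was lower in KO in each of the 3 pairs of samples with the same replicate number, and its log2 fold change was -0.48 (SE 0.19, edgeR adjusted p = 0.11). It passed without WT day 0 replicate 1 (-0.68, edgeR adjusted p = 0.0316) and in a fit of the 6 ESC samples alone (-0.47, edgeR adjusted p = 0.0106).

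The 3 *Igf2bp* genes were each lower by a similar amount. *Igf2bp1* had 530.9, 605.0 and 672.1 CPM in KO ESCs, all under the lowest WT value of 756.3 CPM, with a log2 fold change of -0.58 (SE 0.08, edgeR adjusted p = 0.0011). *Igf2bp2* had 82.6, 61.9 and 65.8 CPM, under the lowest WT value of 115.3 CPM, with a log2 fold change of -0.77 (SE 0.13, edgeR adjusted p = 0.00364). *Igf2bp3* had 40.3, 26.1 and 53.7 CPM, under the lowest WT value of 56.0 CPM by a small margin, with a log2 fold change of -0.86 (SE 0.20, edgeR adjusted p = 0.0147). The *Igf2bp3* call depended on single libraries. It was -0.66 without WT day 0 replicate 3 (edgeR adjusted p = 0.0868) and -0.67 without KO day 0 replicate 2 (edgeR adjusted p = 0.0649). The calls for *Lin28b*, *Igf2bp1* and *Igf2bp2* held whichever library of day 0 was left out. The 4 genes that fell moved the same way as the postimplantation epiblast and neuroectoderm marker sums above, and the part of these in the result was not tested.

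*Trim71* had 432.3, 424.4 and 477.8 CPM in KO ESCs against 467.8 to 512.1 CPM in WT, a log2 fold change of -0.16 (SE 0.06, edgeR adjusted p = 0.097). *Hmga1* had 54.8, 65.0 and 72.5 CPM in KO ESCs (log2 fold change -0.17, SE 0.13, edgeR adjusted p = 0.383). *Hmga2* had 13.8, 32.0 and 24.1 CPM in KO ESCs (log2 fold change -0.27, SE 0.35, edgeR adjusted p = 0.635). For *Hmga2* the spread between replicates was wider than any difference, and in both genotypes it was lowest in replicate 1, the replicate with the lowest feeder marker sums, 86.8 CPM in WT and 137.1 CPM in KO. In KO both were highest in replicate 2. In WT the feeder sum was highest in replicate 2, at 277.1 CPM, and *Hmga2* in replicate 3, at 42.4 CPM. The part of feeder RNA in the *Hmga2* values was not tested.

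Samples that shared a day and a replicate number varied alike in WT and KO, so the fit was repeated with a replicate block within each day. *Lin28a* then passed at -0.47 (SE 0.12, edgeR adjusted p = 0.014) and *Trim71* lay just under the threshold at -0.16 (edgeR adjusted p = 0.05), which made 6 of 8 genes lower. In that fit 34.8% of all genes passed in either direction.

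At day 3 none of the 4 genes that were lower at day 0 passed the test, and both *Hmga* genes did. *Hmga2* was lower and *Hmga1* higher in KO EBs, and the other 6 genes did not pass the test, with log2 fold changes between -0.26 and 0.16. Thus 1 of 8 genes was higher and 1 lower, where 14.3% of all genes were higher and 16.7% lower, or 30.9% in all. A count of 2 of 8 was thus no more than the background.

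*Hmga2* had 98.8, 85.6 and 110.5 CPM in KO EBs and 190.6, 165.5 and 434.2 CPM in WT EBs. The groups did not overlap, and the log2 fold change was -1.31 (SE 0.34, edgeR adjusted p = 0.0159), or 2.47-fold lower. The call depended on single libraries. Without WT day 3 replicate 3, the library set apart by its marker sums above, the log2 fold change was -1.02 (edgeR adjusted p = 0.0636). Without KO day 3 replicate 2 it was -1.16 (edgeR adjusted p = 0.0685) and without KO day 3 replicate 3 it was -1.07 (edgeR adjusted p = 0.0933). The primitive streak and mesendoderm marker sum was also lower in KO EBs, as given above. Among WT EBs, however, replicate 3 had the highest *Hmga2* and the lowest sum (869.6 CPM, against 1757 and 1575 CPM). The part of these markers in the *Hmga2* difference was not tested.

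*Hmga1* had 103.8, 113.1 and 120.1 CPM in KO EBs and 74.5, 89.5 and 72.1 CPM in WT EBs. Every KO EB sample was higher, with a log2 fold change of 0.51 (SE 0.13, edgeR adjusted p = 0.0138). The postimplantation epiblast marker sum was also higher, at 1616 to 1824 CPM in WT EBs and 3005 to 3430 CPM in KO EBs. *Dnmt3b* made up most of it, with means of 1424 and 2754 CPM. *Dnmt3b* and *Pou3f1* passed as higher in KO, and *Otx2* did not pass (log2 fold change 0.58, edgeR adjusted p = 0.0537). *Fgf5* pointed the other way (log2 fold change -0.95, edgeR adjusted p = 0.178). The part of these markers in the *Hmga1* difference was not tested. Without WT day 3 replicate 3 the *Hmga1* log2 fold change was 0.37 (edgeR adjusted p = 0.0524), and without KO day 3 replicate 1 it was 0.44 (edgeR adjusted p = 0.0587). Reads of *Hmga1* are hard to place, because 59.9% of the words of 100 bases in its longest transcript also occur in *Hmga1b*, a near-identical copy, and the other 7 genes share none with another gene. *Hmga1b* had a mean of 186.6 CPM in WT EBs and 243.8 CPM in KO EBs (log2 fold change 0.39, SE 0.14, edgeR adjusted p = 0.0629). With the counts of both summed, KO EBs were higher by a log2 fold change of 0.43 (edgeR adjusted p = 0.0351).

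For the *Lin28* genes the genotypes overlapped at day 3. *Lin28a* had 731.6, 708.6 and 714.0 CPM in KO EBs and 579.3 to 737.5 CPM in WT EBs, and *Lin28b* had 176.5, 143.6 and 157.8 CPM in KO EBs and 134.7 to 178.1 CPM in WT EBs. Their log2 fold changes were 0.08 (SE 0.19, edgeR adjusted p = 0.78) and 0.02 (SE 0.15, edgeR adjusted p = 0.957). The signs of these small values were not stable, as both turned negative without WT day 3 replicate 3 (-0.12 and -0.10). *Igf2bp1* had 500.3, 612.3 and 566.5 CPM in KO EBs (log2 fold change -0.10, SE 0.08, edgeR adjusted p = 0.388), and *Igf2bp3* had 230.7, 203.6 and 229.0 CPM (log2 fold change 0.03, SE 0.20, edgeR adjusted p = 0.936). *Igf2bp2* had 142.0, 135.7 and 140.4 CPM, within the WT range of 139.6 to 198.8 CPM except for 1 sample (log2 fold change -0.26, SE 0.13, edgeR adjusted p = 0.16). *Igf2bp2* passed without WT day 3 replicate 1 (-0.43, edgeR adjusted p = 0.016). Without WT day 3 replicate 3 its log2 fold change was -0.105 (edgeR adjusted p = 0.595). *Trim71* had 278.9, 300.9 and 322.9 CPM against 249.1 to 281.1 CPM, a log2 fold change of 0.16 (SE 0.06, edgeR adjusted p = 0.0717). *Trim71* passed with DESeq2 (adjusted p = 0.0244), where 34% of all genes passed, and with RLE normalization (edgeR adjusted p = 0.0499), where 31.5% did. With the replicate block within each day it also passed (edgeR adjusted p = 0.0385), which made 3 of 8 genes in that fit, where 46.9% of all genes passed.

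**Figure D4:**
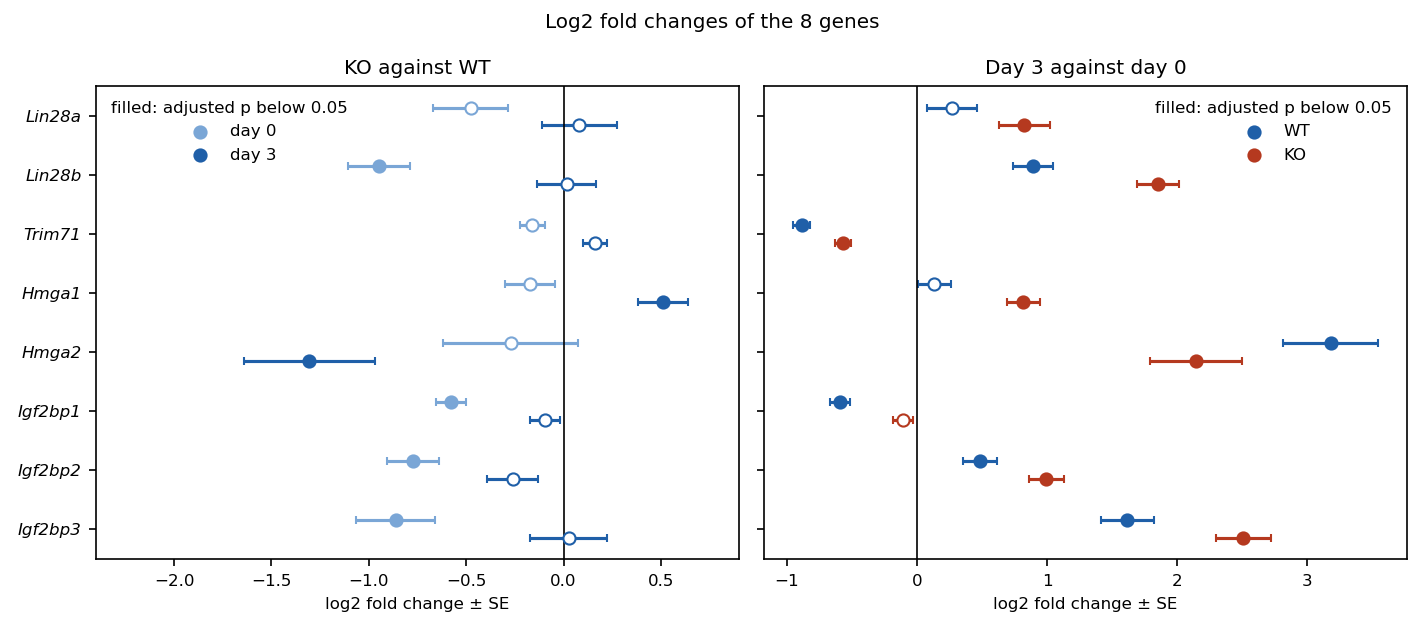
Log2 fold changes (x axis) ± SE of the 8 genes for KO against WT at each day (left) and for day 3 against day 0 in each genotype (right). Filled points passed an adjusted p of 0.05 and open points did not. At day 0 all 8 point estimates lie below 0, and at day 3 only *Hmga1* and *Hmga2* are filled.

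In *Meteor* KO cells 7 of 8 genes changed between day 0 and day 3, 6 up and 1 down, where 56.6% of all genes changed, 29.4% up and 27.2% down. The median log2 fold change was 0.91 over the 8 genes and 0.03 over all genes. *Igf2bp3* rose by 2.51 on the log2 scale (SE 0.21, edgeR adjusted p = 7.72e-06) or 5.68-fold, *Hmga2* by 2.14 (SE 0.35, edgeR adjusted p = 0.00056) and *Lin28b* by 1.85 (SE 0.16, edgeR adjusted p = 8.9e-06). *Igf2bp2*, *Lin28a* and *Hmga1* rose by 0.99, 0.83 and 0.82 on the log2 scale (edgeR adjusted p = 0.000153, 0.00455 and 0.000407). *Trim71* had a log2 fold change of -0.57 (SE 0.06, edgeR adjusted p = 4.06e-05), and *Igf2bp1* one of -0.11 (SE 0.08, edgeR adjusted p = 0.272). The KO groups did not overlap between the days for any of the 7 genes that changed, and these 7 calls held whichever library was left out. The comparisons of this course and of KO with WT share samples, so their values stand side by side and are not counted as separate evidence.

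Whether the genotype effect differed between the days was tested with an interaction term. It passed for *Lin28b*, *Hmga1*, *Igf2bp1* and *Trim71*, each with a more positive KO effect at day 3 than at day 0. This was 4 of 8 genes higher and none lower, where 8.21% of all genes were higher and 7.34% lower, or 15.5% in all. At an unadjusted p under 0.05, 6 were higher and none lower, a cutoff for which no share of all genes was counted. DESeq2 gave 5 and none and limma-voom 4 and none, where 19.9% and 15.9% of all genes passed in either direction. The difference of log2 fold changes was 0.96 for *Lin28b* (SE 0.22, edgeR adjusted p = 0.0166), 0.68 for *Hmga1* (SE 0.18, edgeR adjusted p = 0.0304), 0.48 for *Igf2bp1* (SE 0.11, edgeR adjusted p = 0.0167) and 0.32 for *Trim71* (SE 0.09, edgeR adjusted p = 0.0339). For *Igf2bp3*, *Lin28a*, *Igf2bp2* and *Hmga2* it was 0.89, 0.56, 0.51 and -1.03 (edgeR adjusted p = 0.0593, 0.196, 0.0946 and 0.174). With the replicate block within each day all 8 passed, *Hmga2* as lower and the other 7 as higher, where 31.2% of all genes passed. Without any block only *Lin28b* passed, where 12.8% of all genes did. With KO day 0 replicate 2 left out none passed, where 8.81% of all genes did, *Lin28b* having an edgeR adjusted p of 0.056. Over the 12 fits that each left out 1 library, the call was lost in 1 for *Lin28b*, 3 for *Igf2bp1*, 8 for *Hmga1* and 10 for *Trim71*, with adjusted p up to 0.056, 0.0552, 0.0903 and 0.101. *Hmga1* summed with *Hmga1b* gave 0.60 (edgeR adjusted p = 0.0554).

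Genes that act on let-7 and other microRNAs were followed next, as an 18-gene list of processing factors, all tested. At day 0, 2 were higher in KO (*Tut7* and *Tent2*) and 2 lower (*Prkra* and *Xpo5*). *Tut7*, a terminal uridylyltransferase that can mark let-7 precursors held by LIN28A, had a log2 fold change of 0.35 (SE 0.08, edgeR adjusted p = 0.0158). *Xpo5*, which exports microRNA precursors, was at -0.29 (SE 0.08, edgeR adjusted p = 0.0297), and *Prkra*, a partner of Dicer, at -0.50 (SE 0.15, edgeR adjusted p = 0.0465). None of these calls was firm, as 0 of the list passed without WT day 0 replicate 3, without KO day 0 replicate 2 and without KO day 0 replicate 3. At day 3, 3 were higher and 2 lower in KO. *Ago4*, an Argonaute, was at -1.06 (SE 0.27, edgeR adjusted p = 0.0149), *Prkra* at -0.81 (SE 0.15, edgeR adjusted p = 0.00315), and *Drosha*, the nuclear microRNA nuclease, at 0.33 (SE 0.11, edgeR adjusted p = 0.0377). In the course from day 0 to day 3, 7 rose and 3 fell in WT and 8 rose and 3 fell in KO, with *Ago4* up by 2.25 and *Prkra* up by 1.40 on the log2 scale in WT. Of all genes, 20.4% passed for KO against WT at day 0 and 30.9% at day 3. In the course, 56.2% passed in WT and 56.6% in KO. The shares of the processing list were near these.

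The let-7 genes themselves gave almost no reads. Of 17 listed let-7 genes and hosts, 15 were in the files and 2 passed the filter, the host genes *Wdr82* and *Huwe1*. The 12 let-7 genes in the files, *Mir98* included, had at most 3 reads in any library. *Wdr82*, the host of *Mirlet7g*, is a subunit of a histone methyltransferase complex and was higher in KO at both days (log2 fold change 0.37, SE 0.06, edgeR adjusted p = 0.00307 at day 0, and 0.32, SE 0.06, edgeR adjusted p = 0.00383 at day 3). It fell from day 0 to day 3 in both genotypes, by 0.44 in WT and 0.48 in KO on the log2 scale. A host mRNA does not measure the let-7 made from it.

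Of 25 described let-7 targets outside the 8 genes, 7 were lower and none higher in KO ESCs, where 10.9% of all genes were lower. At an unadjusted p under 0.05, 11 were lower and 1 higher, again with no share of all genes counted. DESeq2 and limma-voom gave 8 and 6 lower and none higher, where 23.3% and 20.2% of all genes passed in either direction. *Mycn*, a growth-promoting transcription factor, led them with 303.1, 224.9 and 301.4 CPM in WT and 129.3, 49.2 and 85.4 CPM in KO. It had a log2 fold change of -1.70 (SE 0.28, edgeR adjusted p = 0.00314). *Ccnd2*, a G1 cyclin, *Plagl1*, an imprinted zinc finger gene, and *Irs2*, an insulin signalling adaptor, were at -0.88, -0.86 and -0.70 (edgeR adjusted p = 0.0216, 0.0478 and 0.0445), each with overlapping groups. *Mycn*, *Ccnd2* and *Plagl1* had no match to CTACCTC in their annotated 3′ UTRs and *Irs2* had 1, while 15 of the 25 targets had at least 1. Other forms of let-7 site were not searched for. The median over the list was -0.28. The count moved with the libraries used. It ran from 1 to 8 targets lower when single libraries were left out, where 10.9% to 18.1% of all genes passed. The count was 3 without the block and 12 (with 1 higher) with the block within each day, where 16.8% and 34.8% of all genes did.

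At day 3, 8 of the 25 targets were lower and 3 higher in KO EBs, where 16.7% of all genes were lower and 14.3% higher. *Ccnd2* had 73.6, 105.0 and 63.3 CPM in WT EBs and 7.45, 8.13 and 8.49 CPM in KO EBs, a log2 fold change of -3.31 (SE 0.25, edgeR adjusted p = 4.46e-05). *Plagl1*, *Arid3b* and *Arid3a*, the latter pair transcription factors with an ARID domain, were at -2.20, -1.22 and -1.18 (edgeR adjusted p = 0.000693, 0.000193 and 0.0006). The list did not move as a whole, as its median was -0.10. In the interaction test 5 targets were higher and 4 lower, where 8.21% of all genes were higher and 7.34% lower. *Mycn* was at 2.16 (edgeR adjusted p = 0.00667) and *Ccnd2* at -2.44 (edgeR adjusted p = 0.00173). From day 0 to day 3, 12 rose and 5 fell in each genotype. Of all genes, 30.7% rose and 25.5% fell in WT, and 29.4% rose and 27.2% fell in KO. *Thbs1*, a matrix glycoprotein gene that fibroblasts also express, had the largest drop with a log2 fold change of -3.18 in WT. The feeder marker sum was 52.1 to 122.3 CPM in WT EBs and 86.8 to 277.1 CPM in WT ESCs, and its part in the *Thbs1* change was not tested.

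**Figure D5:**
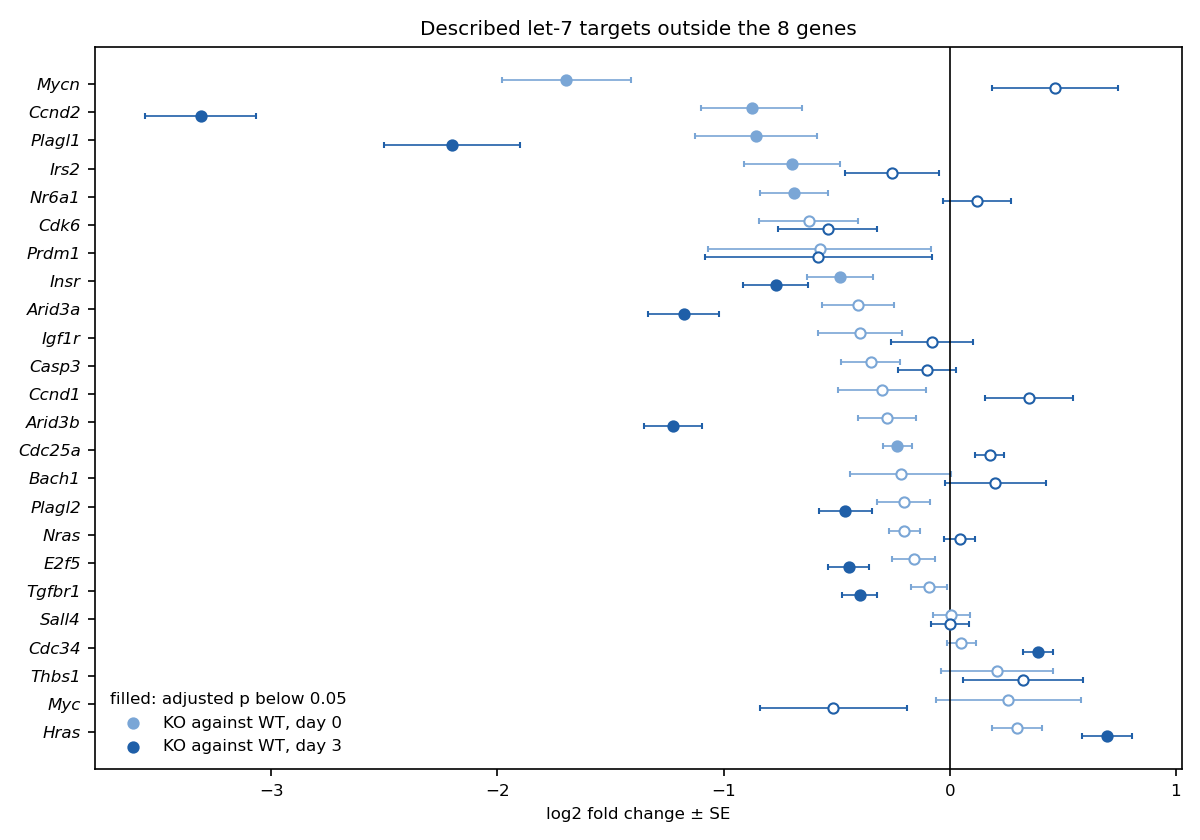
Log2 fold changes (x axis) ± SE for KO against WT of 24 of the 25 described let-7 targets outside the 8 genes, at day 0 (light) and day 3 (dark), ordered by the day 0 value. Filled points passed an adjusted p of 0.05. *Mycn* is the lowest at day 0 with -1.70 and *Ccnd2* the lowest at day 3 with -3.31.

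Genes were also grouped by the match to CTACCTC alone, with no regard to what is described for them. Outside the 8 genes, 1692 tested PCGs had at least 1 match and 12416 had none. In KO against WT ESCs, 11.7% of the genes with a match and 11.7% of those without were lower, and 9.57% and 9.62% were higher. In EBs, 20.8% of those with a match and 17.5% of those without were lower in KO. In WT from day 0 to day 3, 36.7% of those with a match and 30.8% of those without rose, with median log2 fold changes of 0.15 and 0.07. Genes with a match had longer 3′ UTRs, with a median of 2431 bases against 1217 bases, and the part of length was not tested.

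The last list held 10 RNAs tied to the IGF2BP, TRIM71 and HMGA proteins. None passed for KO against WT ESCs in edgeR, where 20.4% of all genes did, and 1 did as higher at an unadjusted p under 0.05. DESeq2 called 1 and limma-voom none, where 23.3% and 20.2% of all genes passed. With the block within each day 4 passed, where 34.8% of all genes did. In KO EBs 5 were lower and none higher, where 16.7% of all genes were lower and 14.3% higher. *Igf2*, the growth factor mRNA that names the IGF2BP family, had 27.3, 36.5 and 979.3 CPM in WT EBs and 8.20, 6.54 and 5.99 CPM in KO EBs, and *H19*, the noncoding RNA of the same imprinted domain, had 8.63, 24.4 and 401.4 CPM in WT EBs and 4.65, 13.8 and 7.12 CPM in KO EBs. The groups overlapped for *H19*. The high value of both was in WT day 3 replicate 3, the library that also had the highest *Hmga2*. Their log2 fold changes were -4.75 (SE 1.25, edgeR adjusted p = 0.0171) and -3.21 (SE 1.08, edgeR adjusted p = 0.0454). Leaving out single libraries gave -5.78 to -2.13 for *Igf2* (edgeR adjusted p up to 0.102) and -4.12 to -0.95 for *H19* (edgeR adjusted p up to 0.222), so neither call was firm. *Cdkn1a*, a cell cycle inhibitor whose mRNA TRIM71 is known to repress, and *Cd44*, an adhesion receptor gene, were both at -1.79 (edgeR adjusted p = 0.00208 and 0.012), and that of *Cd44* reached 0.0725 in edgeR when single libraries were left out. Without WT day 3 replicate 3, 4 of the list were lower, and without KO day 3 replicate 2 or 3 only 1 was. In these fits 21.6%, 20.2% and 18.5% of all genes passed in either direction. From day 0 to day 3, 2 rose and 4 fell in WT, where 30.7% of all genes rose and 25.5% fell. In KO none rose and 6 fell, where 29.4% of all genes rose and 27.2% fell. *Cd44* had 11.3, 44.4 and 30.9 CPM in KO ESCs and 2.95, 4.55 and 3.20 CPM in KO EBs, a log2 fold change of -2.85 (SE 0.44, edgeR adjusted p = 0.000364). The feeder marker sums of the same libraries were 137.1, 381.1 and 236.3 CPM in KO ESCs and 41.3, 75.8 and 85.1 CPM in KO EBs, and their part in the *Cd44* values was not tested.

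For each of the 8 genes the PCGs with the most similar profile were found by Pearson r of log2 CPM over the 12 samples, among 14169 tested PCGs. These are descriptions over samples that share 4 groups. *Lin28b* was most like *Phf6* and *Fabp5* (r = 0.990 for both) and *St6gal1* (r = 0.988). *Igf2bp3* was most like *Gnai2* (r = 0.991), *Polg2* (r = 0.990) and *Pim2* (r = 0.985), and *Igf2bp2* like *Arap3* (r = 0.988), *Mfap4* (r = 0.980) and *Tspan7* (r = 0.974). *Trim71* was most like *E2f8* (r = 0.989), *Actb* (r = 0.986) and *Akap1* (r = 0.985), and *Lin28a* like *Snrpb* (r = 0.985), *Psmf1* (r = 0.969) and *Fbxo38* (r = 0.963). *Hmga2* was most like *Alg10b* (r = 0.979) and *Babam1* (r = 0.978). *Igf2bp1* had the loosest matches, *Kpnb1* (r = 0.964), *Wipf2* (r = 0.941) and *Ndnf* (r = 0.936), and *Hmga1* was near *Xpo7* (r = 0.974), its copy *Hmga1b* (r = 0.961) and *Ppp5c* (r = 0.954). Among the 8 genes themselves, *Lin28b* and *Igf2bp3* were the closest pair (r = 0.957), and *Hmga2* and *Trim71* the most opposed (r = -0.847).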

How the data were processed

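The authors selected polyadenylated RNA, trimmed single reads (cutadapt 1.3), aligned to GRCm38 (STAR 2.4.2a) and counted reads per gene (HTSeq 0.6.1), per the labels and methods, which differ on the kit and sequencer model. The deposited values are these raw counts. The 5 rows that name no gene held 46.3% to 51.0% of the alignments, with 36.52% to 44.09% not unique, so near-identical copies lose reads. These rows were left out.

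Counts of all 12 samples were fitted with edgeR 4.0.16 (R 4.3.3, quasi-likelihood test, TMM, replicate number as a block because the study's methods add a batch factor), over 15673 genes above 1 CPM in at least 1 sample, with Benjamini-Hochberg adjustment over all of them and calls at an adjusted p under 0.05. Standard errors came from the log2 fold change and the F statistic. Replicates are separate samples by their labels. Nothing states separate cultures, so p-values cover the spread between samples only. Replicate pairs differed by more than sampling noise (chi-square per gene at least 10.58).

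The labels number the replicates. Deviations of same-numbered WT and KO samples from their group means correlated at 0.701, 0.476 and 0.539 at day 0 and at 0.702, 0.524 and 0.328 at day 3 over 12659 genes, and between days at -0.224 to 0.073. The numbers therefore pair samples within a day, not between days, while the block of the main fit spans both days.

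The 8 genes, the lists and the rules were chosen with earlier results of these data known. Named beside the 8 genes are at most 4 called genes per list and comparison with the largest log2 fold change, the 3 nearest PCGs by r, the check genes and *Hmga1b*. A few genes under this rule are not reported here, though counts over lists include them. Alternatives were no block, a block within each day, the groups compared alone, DESeq2 1.42.0, limma-voom (limma 3.58.1), RLE normalization, a minimum of 10 counts in each sample, no filter, and each library left out. Summing *Hmga1* and *Hmga1b* was added after seeing the data. Tables used Python 3.11.15, pandas 2.3.3 and numpy 2.4.6, and figures matplotlib 3.10.9. Mature microRNAs, isoforms and protein were not analysed here.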

Additional observations from a re-analysis of the deposited data

Results flagged for a closer look

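A difference of the KO effect between day 3 and day 0, tested with an interaction term in edgeR, singled out 4 genes, all as higher. Across all genes 8.21% were higher and 7.34% lower. The difference of log2 fold changes was 0.963 for *Lin28b*, 0.684 for *Hmga1*, 0.484 for *Igf2bp1* and 0.322 for *Trim71*. *Lin28b* and *Igf2bp1* were lower in KO at day 0 and passed no test at day 3. *Hmga1* passed at day 3, as higher in KO, and not at day 0. *Trim71* passed at neither day in this fit. With the replicate block within each day it passed as lower at day 0 (edgeR adjusted p = 0.05), where 34.8% of all genes passed. In that fit it also passed as higher at day 3 (edgeR adjusted p = 0.0385), where 46.9% did. Over 12 fits that each left out 1 library, the interaction call was lost in 1 for *Lin28b* and 3 for *Igf2bp1*. It was lost in 8 for *Hmga1* and 10 for *Trim71*. Without any block only *Lin28b* passed the interaction test, where 12.8% of all genes did. With groups of 3, no single sample was tested as an outlier.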

How the results depend on the processing

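Of 589 log2 fold changes of the 8 genes under an alternative, 524 kept their direction and side of the threshold, 37 lost the call, 19 gained it and 9 turned sign. The sign turned only in values close to 0. For KO against WT at day 3 it did so without WT day 3 replicate 3 (*Lin28a* -0.121, *Lin28b* -0.105, *Igf2bp3* -0.174), without KO day 3 replicate 1 (-0.016, -0.024 and -0.029), without KO day 3 replicate 2 (*Igf2bp3* -0.044) and with the minimum of 10 counts (*Lin28b* -0.005). For *Hmga1* in WT from day 0 to day 3 it did so without WT day 0 replicate 1 (-0.008). Leaving out 1 library spanned -0.121 to 0.206, -0.105 to 0.082 and -0.174 to 0.255 for the 3 genes at day 3, and -0.008 to 0.277 for *Hmga1* in WT. Leaving out 1 library gave 0 to 3 genes called for KO against WT at day 3, where 18.5% to 27.2% of all genes passed. It gave 0 to 4 for the interaction, where 8.81% to 15.3% passed. The interaction had 1 called with no replicate block and 8 with the block within each day, where 12.8% and 31.2% of all genes passed. At day 0 the block within each day gave 6 and no block gave 4, where 34.8% and 16.8% of all genes passed. The main fit blocks on the replicate number across both days, whereas same-numbered samples varied alike within a day and not between days. With the block within each day, more of the 8 genes and more of all genes passed for KO against WT at each day and for the interaction. Of 292 counts over the pathway lists, 231 stayed within 1.5 times and 61 moved further. Dropping the replicate block changed no other call of these genes. Each comparison rests on 3 libraries per group. At this depth *Hmga2*, the lowest of the genes, had 243 to 802 reads in the WT ESC libraries.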
